A study of Homo sapiens with 6 samples.

Results

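The promoters described here were open in every library of a CB-6644 experiment in MM.1S cells and changed their rank among open sites after treatment. MM.1S is an established cell line from a multiple myeloma, a cancer of plasma cells. Chromatin accessibility was measured by Omni-ATAC, in which a transposase inserts sequencing adapters into open DNA, so that fragments pile up as peaks at accessible sites. The groups were 3 libraries of cells given 120 nM CB-6644 for 72 h, labelled CB-6644 replicates 1 to 3, and 3 libraries of cells given DMSO, the vehicle, labelled DMSO replicates 1 to 3. Both groups were of the same line, for which the labels give no engineered change. Live cells were isolated by FACS before the assay according to the study's methods, so the libraries describe cells that were alive at the sort. Nothing in the labels says whether the replicates came from separate cultures.

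Peaks of the 6 lists that overlapped by at least 1 bp were merged into 89196 regions, of which 42089 held a peak in all 6 libraries. Of these, 10639 lay within 1000 bp of the transcription start site (TSS) of a protein-coding gene and are called shared promoters. A promoter's level in a library was the fold enrichment of its highest peak over local background, given as a percentile among all peaks of that library, with 100 the highest. A member was a shared promoter whose 3 levels in one group all stood at least 5 points above the 3 of the other. There were 29 promoters, of 34 genes, higher in CB-6644, which was 0.273% of the shared promoters. There were 200, of 219 genes, lower in CB-6644, which was 1.88%. These 229 promoters were selected on their levels in all 6 libraries, so the levels and their differences are given as a description, with no test. The split depended on the reference set of the ranks: among regions called in all 6 libraries 274 promoters were higher and 125 lower, among shared promoters alone 167 and 273, and with equal numbers of top peaks per list 373 and 84.

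A promoter is the stretch of DNA around a TSS where RNA polymerase II and its general factors assemble. Promoters with many CpG dinucleotides are commonly open in most cell types, while CpG-poor promoters tend to open in particular cell types or under particular stimuli. RUVBL1 and RUVBL2, the ATPases that CB-6644 inhibits, are subunits of the INO80, SRCAP and TIP60 chromatin remodelers, which move nucleosomes and exchange histone variants, many of them next to start sites. They also act in the R2TP co-chaperone, which assembles other large complexes.

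Several facts of the whole lists bear on the values. They held 58563 to 71781 peaks in CB-6644 and 65569 to 79020 in DMSO, and give no read totals. The background in tags per kb, recovered from the lists as a stand-in for depth, was 3.2 to 7.05 in CB-6644 and 6.40 to 9.08 in DMSO. CB-6644 replicate 2 and DMSO replicate 1 stood apart, with shortest peaks of 65 and 91 bp against 131 to 152 bp in the other 4. The median shared promoter ranked at 83.3 and 79.3 in these 2 libraries and between 68.1 and 70.7 in the others. Promoters also took a larger part of the CB-6644 lists, 20.3%, 24.7% and 20.3% of peaks against 19.1%, 17.6% and 18.6%. The part of depth and fragment length in the shifts below was not tested. Of 9 plasma cell marker genes, 8 had a promoter peak in all 6 libraries and SLAMF7 in 5, while 2 of 3 B cell markers and 4 of 7 markers of other cell types had none in any. The B cell marker PAX5 had a promoter peak in all 6. CD14 and COL1A1, also among those 7, had a promoter peak in all 6, and PECAM1 in 5.

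The sequences at the strongest summits show how unlike the members were. They are taken from the hg38 genome for the members with the widest gaps, on the strand of the gene and 5′ to 3′, with untranslated exon sequence left out. Capitals mark matches to a consensus, which are CAGGTG for the TCF4 E-box, CACGTG for the MYC E-box and CCAATCA for NFY, each read on both strands. Among promoters higher in CB-6644, the KRTAP9-3 stretch (chr17:41232686-41232786, plus strand) lies in its coding exon and has no match in these bases, nor has H2AC16 (chr6:27865235-27865316, plus). GNB3 (chr12:6839907-6840007, plus) has 2 E-boxes and FCMR (chr1:206923252-206923352, minus) has 1.
KRTAP9-3: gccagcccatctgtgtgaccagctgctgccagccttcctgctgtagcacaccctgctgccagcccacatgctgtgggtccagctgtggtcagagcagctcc
H2AC16: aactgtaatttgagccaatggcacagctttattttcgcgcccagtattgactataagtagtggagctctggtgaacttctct
GNB3: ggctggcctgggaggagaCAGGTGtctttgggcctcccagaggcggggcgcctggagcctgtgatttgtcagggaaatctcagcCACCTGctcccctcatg
FCMR: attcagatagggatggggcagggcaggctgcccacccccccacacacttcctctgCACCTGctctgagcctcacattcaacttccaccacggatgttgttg

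Among promoters lower in CB-6644, SLPI (chr20:45254913-45255013, minus strand) is AT-rich with no match, ZNF738 (chr19:21358873-21358929, plus) has 1 NFY match and ZNF556 (chr19:2867171-2867271, plus) has 2. TRIB3 (chr20:362606-362706, plus), shown after its values were seen, has a MYC E-box and a TCF4 E-box.
SLPI: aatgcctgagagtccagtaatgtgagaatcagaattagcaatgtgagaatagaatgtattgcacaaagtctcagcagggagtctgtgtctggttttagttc
ZNF738: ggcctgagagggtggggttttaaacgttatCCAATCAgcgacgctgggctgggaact
ZNF556: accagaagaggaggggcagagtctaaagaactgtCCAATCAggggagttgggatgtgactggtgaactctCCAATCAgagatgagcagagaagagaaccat
TRIB3: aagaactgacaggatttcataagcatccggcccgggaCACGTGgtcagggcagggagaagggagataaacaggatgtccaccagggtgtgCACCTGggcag

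Promoters higher in CB-6644 were few and mostly of middle rank. Their median difference of group means was 20.04 points, and their level averaged over the 6 libraries had a median of 58.5, against 73.2 for all shared promoters. The widest gap by far was at KRTAP9-3, which encodes a keratin-associated protein of the hair shaft (chr17:41232561-41233035). It ranked at 98.5, 93.6 and 99.5 in CB-6644 replicates 1, 2 and 3 and at 55.9, 48.2 and 47.4 in DMSO. The CB-6644 mean was 97.2 ± 3.14 (SD, n = 3) and the DMSO mean 50.5 ± 4.70 (SD, n = 3), which left 37.7 points between the groups. It was the sole promoter of the 29 with a gap of 20 points or more, and its fold enrichment was 2.26 times as high. KRTAP9-3 belongs to a cluster of near-identical genes, so reads there can be shared with copies.

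CHAC1 encodes an enzyme that breaks down glutathione and is a known target of the stress factor ATF4. Its promoter (chr15:40952767-40953754) ranked at 93.9, 93.1 and 95 in CB-6644 and at 74.3, 70.3 and 73.0 in DMSO. Replicates lay close together in both groups, with means of 94.0 ± 0.968 and 72.5 ± 2.02 (SD, n = 3 each). The direction depends on the measure: ranked by the height of the pile-up, without dividing by background, the CHAC1 difference was −2.30 points, and ranked by −log10 p it was −0.68. H2AC16, a histone H2A gene (chr6:27865015-27865718), ranked at 71.1, 60.8 and 60.8 against 37.8, 42.9 and 43.9, with a difference of 22.7 points, and its sign also turned with the pile-up, to −6.45.

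Genes of immune cells were represented by FCMR, TLR10 and SRGN. FCMR encodes the Fc receptor for IgM, and the region over its TSS (chr1:206923025-206923550) ranked at 64.6, 91.0 and 75.8 in CB-6644 and at 49.4, 23.5 and 31.3 in DMSO. The spread was wide, with SDs of 13.2 and 13.3, and the means differed by 42.4 points. TLR10, a toll-like receptor (chr4:38782911-38783090), ranked at 63.5, 68.2 and 72.5 against 37.1, 50.04 and 45.3. SRGN, the proteoglycan serglycin of secretory granules (chr10:69087585-69088287), ranked at 54.0, 62.6 and 57.2 against 41.7, 39.0 and 33.2. Ranked by pile-up, the SRGN difference was −1.71 points, while by −log10 p it kept its sign.

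Other members of this direction include genes of tissues far from plasma cells. CRYBB1, a lens crystallin (chr22:26617884-26618247), was among the weakest peaks in DMSO, at 22.7, 7.01 and 3.82, and ranked at 42.6, 69.4 and 37.7 in CB-6644. GM2A, a cofactor of lysosomal ganglioside breakdown and a member named after its values were seen, started lower still, at 4.77, 3.36 and 0.458 against 16.0, 33.3 and 14.4. CRYBA2, another crystallin, was also a member. Together they were 2 of the 4 shared promoters of crystallin genes, a family chosen after the members were seen, beside 0.273% of all shared promoters. CEND1, a neuronal regulator of cell cycle exit (chr11:789497-790216), ranked at 69.7, 77.2 and 54.6 against 41.8, 28.3 and 25.9. GNB3, a G protein subunit (chr12:6839810-6840222), ranked at 64.7, 73.3 and 66.1 against 49.3, 46.8 and 41.9. APELA, which encodes a ligand of the apelin receptor (chr4:164877079-164877332), ranked at 63.9, 61.8 and 59.8 against 45.1, 31.7 and 38.7. In each of these the lowest CB-6644 library stood above the highest DMSO library, by 9.17 points at CRYBA2 to 15.3 at GNB3.

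BEST3 and MMS22L close the 12 with the widest gaps. BEST3, a chloride channel of the bestrophin family (chr12:69699197-69699607), had the tightest replicates of the 12, at 78.3, 79.9 and 77.7 against 65.5, 66.5 and 67.2. MMS22L, which acts in repair of stalled replication forks (chr6:97282575-97283602), ranked at 92.7, 93.8 and 88.0 against 77.7, 77.7 and 70.9. Of the 29, 12 had a gap of 10 points or more. HARS2, MMP26 and CFAP58 lay just inside the limit, with gaps of 5.29, 5.35 and 5.44 points, and POLQ, POLR3C and SH2D2A just outside it, with 4.85, 4.75 and 4.73. DMSO replicate 1 was the highest DMSO library at 23 of the 29, and without this library 466 of 10658 shared promoters passed as higher and 269 as lower, which turned the balance of the directions. Leaving out CB-6644 replicate 1, 2 or 3 gave 80, 44 and 85, and leaving out DMSO replicate 2 or 3 gave 42 and 35. With fewer libraries the rule is looser, so larger counts follow in part from the rule.

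**Figure D1:**
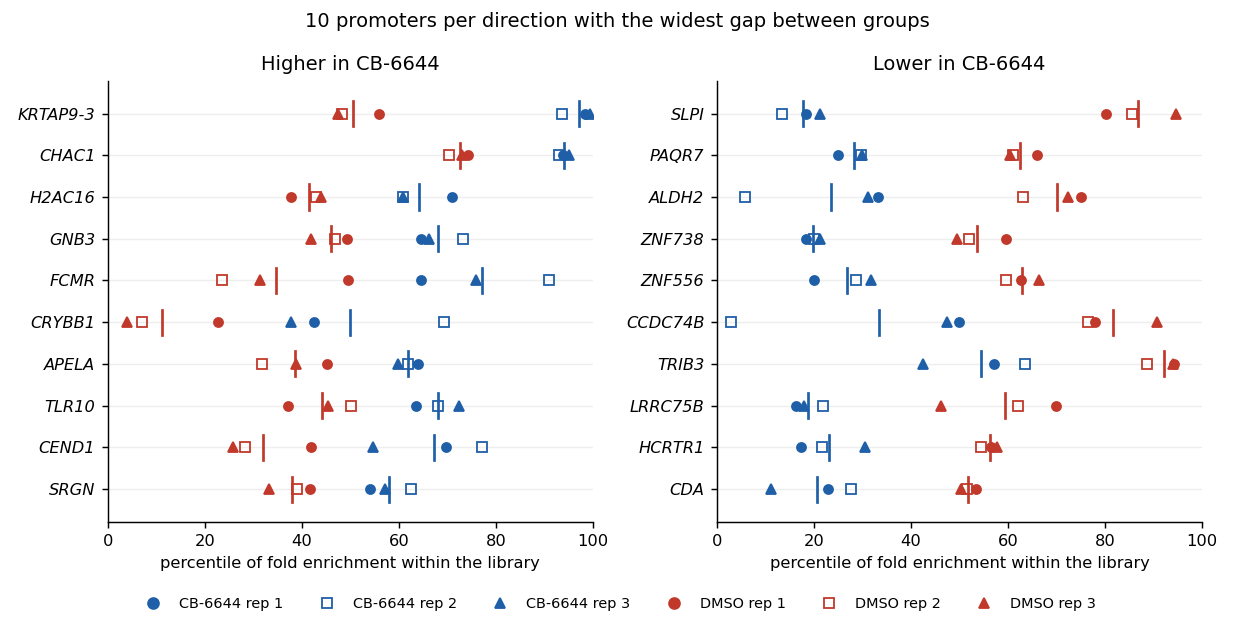
Percentile of fold enrichment in each library (points, 6 per promoter; x axis 0 to 100) for the 10 promoters of each direction with the widest gap, with vertical lines at the group means. KRTAP9-3 and SLPI have the widest gaps, 37.7 and 59.0 points, and CB-6644 replicate 2 lies far below its group at ALDH2 and CCDC74B.

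Promoters lower in CB-6644 were more numerous and reached larger differences, with 69 gaps of 10 points or more and 14 of 20 or more. Their median difference was −19.2 points. THAP4, C5orf63 and HEYL lay just inside the limit, with gaps of 5.01, 5.03 and 5.05 points, and PCED1B, WDR11 and PRTG just outside it, with 4.97, 4.96 and 4.91. By the looser rule over fewer libraries, the count was 784 of 10849 without CB-6644 replicate 2. It was 342 of 10752 without CB-6644 replicate 3 and 365 of 10763 without DMSO replicate 3. The widest gap was at SLPI, which encodes a secreted inhibitor of neutrophil elastase and related proteases (chr20:45254723-45255258, summit 399 bp upstream of the TSS). SLPI ranked at 18.3, 13.4 and 21.2 in CB-6644 and at 80.1, 85.5 and 94.7 in DMSO. The means were 17.6 ± 3.91 and 86.8 ± 7.35 (SD, n = 3 each), a difference of −69.2 points, the most negative of all 10639 shared promoters. Its fold enrichment was 8.42, 6.62 and 9.09 in CB-6644 and 26.3, 24.7 and 26.2 in DMSO, or 3.2 times as high in DMSO. The next gap in this direction was 30.6 points, at PAQR7.

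Stress and amino acid genes stood on both sides. TRIB3 encodes a pseudokinase that ATF4 and CHOP induce under stress, and its promoter (chr20:362425-362838, summit 179 bp upstream) ranked at 57.2, 63.4 and 42.4 in CB-6644 and at 94.2, 88.6 and 94.0 in DMSO. The means were 54.4 ± 10.8 and 92.3 ± 3.2 (SD, n = 3 each), so that a promoter near the top of the DMSO lists stood at middle rank after treatment. SHMT2, the mitochondrial serine hydroxymethyltransferase (chr12:57229535-57230371), ranked at 36.8, 58.5 and 44.3 against 73.0, 67.2 and 67.7. PCK2, the mitochondrial phosphoenolpyruvate carboxykinase (chr14:24093858-24094733), ranked at 38, 53.8 and 39.4 against 79.4, 69.6 and 73.1, and is named here after its values were seen. Of the 43 genes listed for amino acid supply and the integrated stress response, 36 had a shared promoter, in 40 regions. CHAC1 was higher and TRIB3 and SHMT2 were lower, where 0.273% and 1.88% of all shared promoters were higher and lower. The other 37 regions were no members. Without any margin, the groups did not overlap at 2.5% of the 40 regions higher and 5% lower, beside 2.22% and 6.05% of all shared promoters. The median difference of the 40 regions was 3.69 points against 1.02 for all shared promoters, so TRIB3 and SHMT2 went against the middle of their list.

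ALDH2, CDA and PAQR7 were further promoters with wide gaps. ALDH2, the mitochondrial aldehyde dehydrogenase (chr12:111766542-111767152), ranked at 33.2, 5.85 and 31.2 against 75.2, 63.0 and 72.4. CB-6644 replicate 2 lay far below its group there. That replicates 1 and 3 were also below all DMSO libraries was required by the rule. CDA, the cytidine deaminase that salvages pyrimidines and inactivates cytidine analogs (chr1:20588723-20589160), ranked at 22.8, 27.6 and 11.1 against 53.5, 51.5 and 50.3. PAQR7, a membrane progestin receptor (chr1:25875273-25875766), ranked at 24.9, 29.6 and 29.96 against 66.1, 61.1 and 60.5, with tight replicates in both groups.

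ZNF738 and ZNF556, which encode zinc finger proteins, lie far apart on chromosome 19. ZNF738 (chr19:21358806-21359359) ranked at 18.3, 19.9 and 21.2 against 59.6, 51.9 and 49.6, and ZNF556 (chr19:2866971-2867414) at 20.05, 28.6 and 31.7 against 62.6, 59.7 and 66.4. Of 370 shared promoters of genes named ZNF or ZFP, 12 were lower (3.24%) and 0 higher, beside 1.88% and 0.273% of all shared promoters. The median difference of those 370 was −0.32 points. This family and those below were chosen after the members were seen.

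The rest of the widest gaps came from genes with little in common. CCDC74B, a coiled-coil protein gene (chr2:130144247-130145270), ranked at 49.97, 2.88 and 47.3 against 78.0, 76.5 and 90.8. LRRC75B, a leucine-rich repeat gene (chr22:24592834-24593340), ranked at 16.3, 21.8 and 17.9 against 69.8, 62.0 and 46.3. CCDC74B owed its CB-6644 SD of 26.5 to replicate 2, while at LRRC75B the DMSO libraries were the more scattered, with an SD of 12. HCRTR1, an orexin receptor (chr1:31618004-31618529), ranked at 17.3, 21.6 and 30.5 against 56.5, 54.4 and 57.8. TCEAL2 (chrX:102125243-102125798) ranked at 30.9, 19.9 and 52.8 against 83.3, 82.4 and 74.3. HCRTR1 lay near the middle of the DMSO lists and well below it in CB-6644, while TCEAL2 lay higher in both groups and was scattered in CB-6644, with an SD of 16.7.

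Promoters of inflammatory genes were found among those lower in CB-6644, and they were picked out after their values were seen. CASP1, the protease that matures interleukin-1β (chr11:105034698-105035401), ranked at 59.5, 67.8 and 65.9 against 87.1, 91.8 and 74.6. CARD16, which encodes a CARD-only regulator of CASP1 and lies 65.7 kb away (chr11:105101148-105101585), ranked at 50.6, 19.9 and 21.2 against 69.7, 79.3 and 67.6. Shared regions away from promoters within 50 kb were lower as well. Their median difference was −15.5 points over 3 regions for CASP1, and the difference was −49.2 at the 1 region for CARD16. CCR1, a chemokine receptor (chr3:46208152-46208583), was weak throughout, at 3.35, 1.07 and 4.04 against 19.6, 26.3 and 21.5. CXCR1, an interleukin-8 receptor (chr2:218166720-218167077), ranked at 64.0, 47.3 and 40.5 against 82.4, 74.8 and 71.1. CCL4, a chemokine (chr17:36103295-36104023), ranked at 68.1, 0.575 and 68.9 against 80.2, 87.9 and 88.3, where the low mean of 45.9 ± 39.2 (SD, n = 3) comes from CB-6644 replicate 2. CCR1, CXCR1 and CCL4 were 3 of the 13 shared promoters of chemokine and chemokine receptor genes, beside 1.88% of all shared promoters. TLR9, the receptor for unmethylated CpG DNA (chr3:52225620-52226637), ranked at 22.6, 21.8 and 20.3 against 49.4, 32.3 and 42.7, opposite in direction to TLR10. Among 42 shared promoters of a list of interferon response genes there was no member, beside 0.273% higher and 1.88% lower of all shared promoters. Without any margin, the groups did not overlap at 1 of the 42 higher (2.38%) and 5 lower (11.9%). The shares of all shared promoters were 2.22% and 6.05%. These counts are small.

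Lists of basic cell machinery gave 1 member each. These were PSMC1 of 44 promoters of proteasome subunits, RPL23 of 74 of cytosolic ribosomal proteins, RFC3 of 62 of the cell cycle and E2F targets and NDUFA13 of 61 of oxidative phosphorylation, all lower in CB-6644, where 1.88% of all shared promoters were lower. PSMC1, an ATPase of the proteasome's regulatory particle (chr14:90256442-90256815), ranked at 72.0, 72.6 and 68.3 against 92.4, 94.3 and 85.7. RPL23 (chr17:38853406-38854236) ranked at 60.5, 69.5 and 65.1 against 84.4, 79.6 and 80.6. RFC3, part of the clamp loader of DNA replication (chr13:33817928-33818628), ranked at 64.1, 71 and 75 against 83.7, 85.6 and 81.4. These shifts of 13.5 to 19.8 points left the promoters in the upper part of every list. The promoter shared by NDUFA13, TSSK6 and a readthrough gene (chr19:19515901-19516490) moved less, at 84.0, 88.6 and 89.1 against 95, 94.5 and 95.3.

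GPRC5D, an orphan receptor on plasma cells used as a target in myeloma therapy (chr12:12952039-12952599), was the 1 member among 24 promoters of plasma cell identity genes, beside 1.88% of all shared promoters lower. It ranked at 42.7, 7.46 and 24.3 in CB-6644 and at 58.9, 53 and 50.8 in DMSO. The CB-6644 libraries were widely spread there, with an SD of 17.6 and replicate 2 the lowest. NR3C1, the glucocorticoid receptor through which dexamethasone acts in myeloma (chr5:143435173-143435551, singled out after its values were seen), ranked at 51.5, 37.0 and 52.2 against 71, 67.4 and 61.0. No promoter on the lists of the RUVBL1/2-containing complexes (45 promoters), the unfolded protein response and secretion (47), the MYC network (26), p53 targets (38), the NF-kB pathway (31), AP-1 and MAPK feedback (46), the BCL2 family and apoptosis (24) or core RNA splicing (46) was a member. At shares of 0.273% and 1.88% over all shared promoters, lists this short hold few or none. Without any margin, the groups did not overlap at 3 RUVBL1/2 promoters higher (6.67%) and 2 lower (4.44%). The other lists without members had 0 to 4.26% higher and 0 to 4.35% lower, beside 2.22% and 6.05% of all shared promoters.

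A further set, also named after its values were seen, came from other tissues and pathways. GATA3, a transcription factor of T cells and epithelia (chr10:8044853-8045523), ranked at 21.9, 9.70 and 8.2 against 36.1, 30.7 and 34.8. MT1F, a metallothionein that binds zinc and copper (chr16:56657404-56658110), ranked at 32.3, 29.3 and 43.3 against 57.2, 52.9 and 55.0. ADRB1, the β1 adrenergic receptor (chr10:114043032-114043950), ranked at 18.3, 35.4 and 21.2 against 64.2, 57.1 and 51.4. In each the highest CB-6644 library was below the lowest DMSO library by 8.81 to 16.0 points. TINAGL1, a secreted matrix protein gene (chr1:31576273-31576730), ranked at 46.0, 54.1 and 55.8 against 76.3, 76.1 and 74.6, with DMSO replicates that nearly coincided.

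Histone genes were split. Besides H2AC16, the divergent promoter of H2BC7 and H2AC7 (chr6:26198903-26200011) was higher, at 26.5, 33.4 and 32.1 against 19.1, 15.8 and 16.4, and H4C9 (chr6:27139137-27140025) was lower, at 51.3, 64.3 and 51.6 against 79.1, 74.1 and 77.3. Of 53 shared promoters of histone genes, 2 were thus higher (3.77%) and 1 lower (1.89%), beside 0.273% and 1.88% of all, and their median difference was 5.16 points. The H2BC7 direction held for enrichment over background alone, since the pile-up gave −8.24 points and −log10 p gave −5.12.

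**Figure D2:**
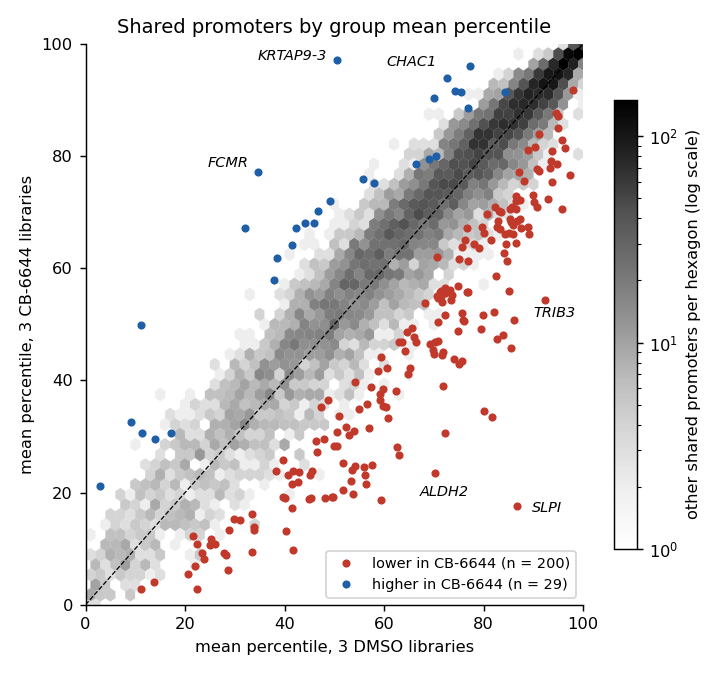
Mean percentile over the 3 CB-6644 libraries (y axis) against that over the 3 DMSO libraries (x axis) for the 10639 shared promoters, with members as points and the others as hexagons shaded by number on a log scale. The dashed line marks equal means, and KRTAP9-3 and SLPI lie farthest from it on either side.

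The level is a value the rule used, and near 100 there is little room for groups 5 points apart, so the number of members by level is a description of the rule as well. Of 1978 shared promoters with a mean percentile over 90, 0 were higher and 3 lower in CB-6644 (0.152%). Between 40 and 70, 12 and 83 of 3331 were members (0.360% and 2.49%), and under 40 the counts were 6 and 55 of 1489 (0.403% and 3.69%). Members were also narrower, with median widths of 527 bp for those higher and 668 bp for those lower in CB-6644 against 840 bp for all shared promoters.

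The base composition of the 2 directions differed. The rule did not use it, but it goes with level and width, so it is given as a description. The CpG observed-to-expected ratio within 100 bp of the strongest summit had a median of 0.372 in promoters higher in CB-6644, 0.772 in those lower and 0.876 in all shared promoters. A ratio under 0.4, called CpG-poor here, was found in 15 of 29 (51.7%), 37 of 200 (18.5%) and 676 of 10639 (6.35%). Seen from the other side, 2.22% of CpG-poor promoters were higher and 5.47% lower, against 0.141% and 1.64% of the rest. At like level the shares also differed: between the 40th and 70th percentile 3.10% of CpG-poor promoters and 0.130% of the rest were higher, and 5.43% and 2.25% lower. GC content followed, with medians of 58.7%, 67.2% and 69.2%.

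**Figure D3:**
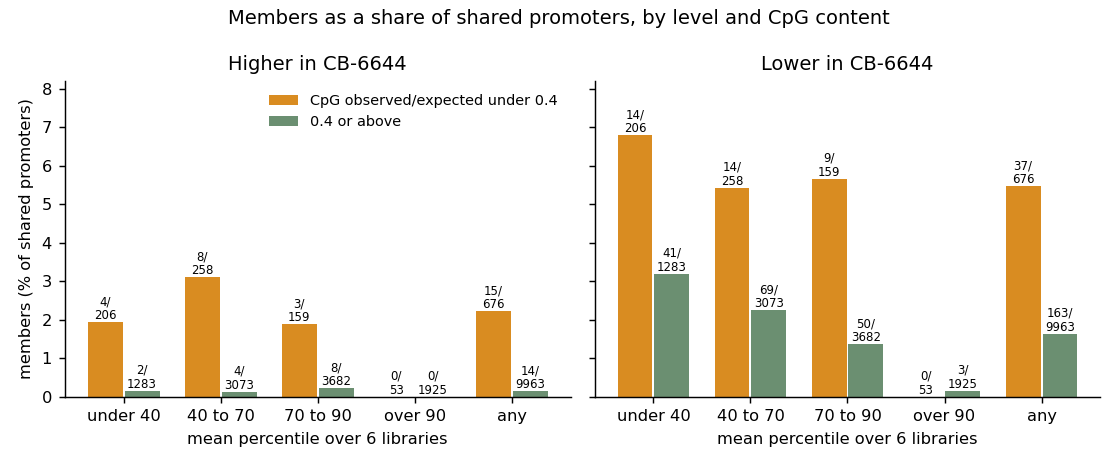
Members as a percent of shared promoters (y axis) in classes of mean percentile over the 6 libraries (x axis), for CpG-poor promoters and the rest, with member and promoter counts above the bars. In each class below 90 the CpG-poor bar is the taller one, in both directions.

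The strongest summit lay within 250 bp of the TSS in 20 of 29 promoters higher (69.0%), 125 of 200 lower (62.5%) and 71% of all shared promoters. In 18 of those lower (9%) the strongest summit was more than 1000 bp from the TSS and just the edge of the region came within range, as against 0 of those higher and 4.93% of all. Divergent pairs of start sites were found at 4 promoters higher (13.8%), 11 lower (5.50%) and 12.5% of all. On chromosome X there were 9 promoters lower (4.5%) and 0 higher, beside 3.36% of all shared promoters.

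Consensus matches within 100 bp of the strongest summit differed between members and the rest, and a match is a description of letters, not of binding. The TCF4 E-box, CAGGTG, was present in 12 of 29 promoters higher (41.4%), 53 of 200 lower (26.5%) and 16.7% of all shared promoters. TCF4 is a basic helix-loop-helix factor of B and plasma cells. E-box shares also differed with base composition, for among CpG-poor promoters the shares were 53.3% of 15, 37.8% of 37 and 33.0% of 676. The SP/KLF box, GGGGCGGGG, which is typical of CpG-rich promoters, was found in 0 of 29, in 24 of 200 (12%) and in 24.3% of all. In promoters that were not CpG-poor, SP/KLF matches were in 0 of 14 higher and 14.1% of 163 lower, beside 25.7% of 9963. The NF-kB consensus GGNNTTTCC was in 3 of 29 (10.3%), 12 of 200 (6%) and 4.04% of all, and the NFY consensus in 3 (10.3%), 6 (3%) and 8.05%.

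**Figure D4:**
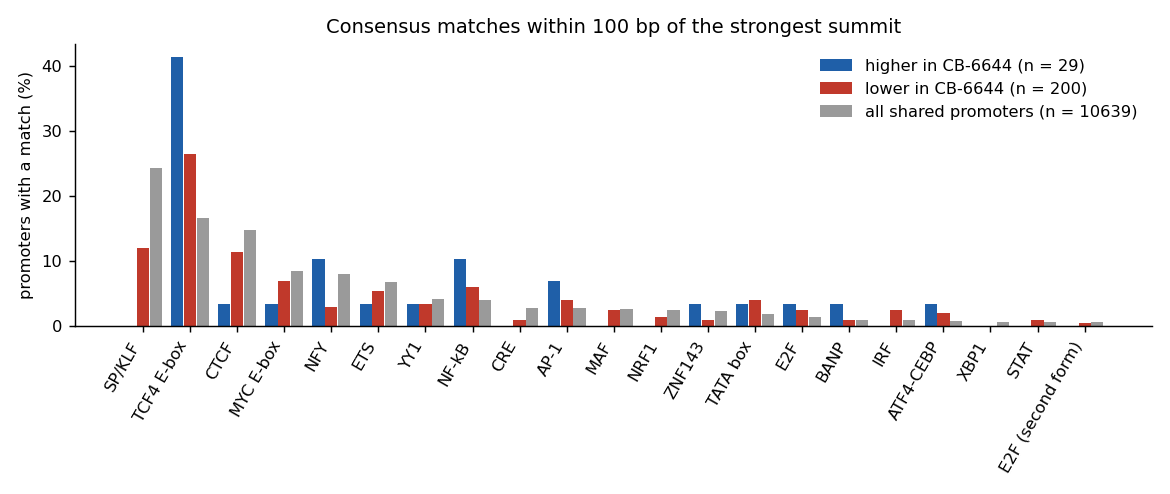
Percent of promoters with at least 1 consensus match within 100 bp of the strongest summit (y axis) for 21 motifs (x axis), in members of each direction and in all shared promoters. The TCF4 E-box bar is tallest for promoters higher in CB-6644, at 41.4%, and the SP/KLF bar for them is at 0.

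ATF4-CEBP and IRF matches were rare. The ATF4-CEBP consensus TGATGNAA, to which heterodimers of ATF4 and CEBP proteins bind, was in 4 of 200 promoters lower (2.00%), which were those of TRIB3, PEX5L, MEGF10 and RAB39B, in 1 of 29 higher (3.45%, CHAC1) and in 0.799% of all. The IRF consensus GAAANTGAA was in 5 of 200 lower (2.50%), among them those of CARD16, CALHM5, NMI and CASP1, in 0 of 29 higher and in 0.996% of all. NMI encodes an interferon-induced partner of MYC and STAT proteins. These counts are small. Of the matches outside untranslated exons, 5 are printed with 11 bases on either side and in capitals, on the strand that reads as the consensus. They lie at chr20:362589-362618 (plus), chr3:180036448-180036477 (minus) and chr5:127290056-127290085 (minus) for ATF4-CEBP, and at chr11:105101435-105101465 (plus) and chr2:151289303-151289333 (minus) for IRF.
TRIB3 ATF4-CEBP: cagggcccctgTGATGGAAgaactgacagg
PEX5L ATF4-CEBP: aacaagtgaagTGATGCAAcatgaccgtga
MEGF10 ATF4-CEBP: gggaggcccagTGATGGAAtgttaaaacca
CARD16 IRF: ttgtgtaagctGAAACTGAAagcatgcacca
NMI IRF: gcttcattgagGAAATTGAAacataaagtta

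Members seldom lay next to each other. In 7 cases a pair of members was within 100 kb. In 4 of them, TINAGL1 with HCRTR1, HEYL with NT5C1A, UROS with DHX32 and CASP1 with CARD16, both were lower. In the other 3, FCMR, CEND1 with CD151 and TRIM31 with TRIM40, the 2 went in opposite directions. CD151, which encodes a tetraspanin, had a difference of −15.2 points and CEND1, 42.9 kb away, one of 35.1. TRIM31 and TRIM40, like CD151, are named after their values were seen. TRIM31 (chr6:30113133-30113647) ranked at 80.3, 76.8 and 70.6 against 61.9, 57.9 and 47.8. TRIM40 (chr6:30136491-30137273), 22.8 kb away, ranked at 45.8, 43.4 and 63.1 against 83.1, 81.9 and 93.0. Both encode ubiquitin ligases of the TRIM family.

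At FCMR the opposite shifts fell on a single gene. Its TSS region was higher in CB-6644, as given above. A second region 0.699 kb away, in an intron with its summit 1198 bp downstream (chr1:206921661-206922325), ranked at 29, 17.3 and 19.7 in CB-6644 and at 49.0, 40.9 and 38 in DMSO. The intronic region stood above the TSS region in DMSO replicates 2 and 3, just below it in DMSO replicate 1 (49.0 against 49.4) and far below it in every CB-6644 library. Its difference was negative in all 21 other settings tried, but it was still called in just 12 of them, the fewest of the named promoters. The TSS region was called in all 21. A smaller margin, a wider TSS distance and the replicate block keep any member by construction, and leaving out libraries seldom removes one. A change of margin or TSS distance also leaves the difference unaltered. These counts are therefore a description and no separate support.

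**Figure D5:**
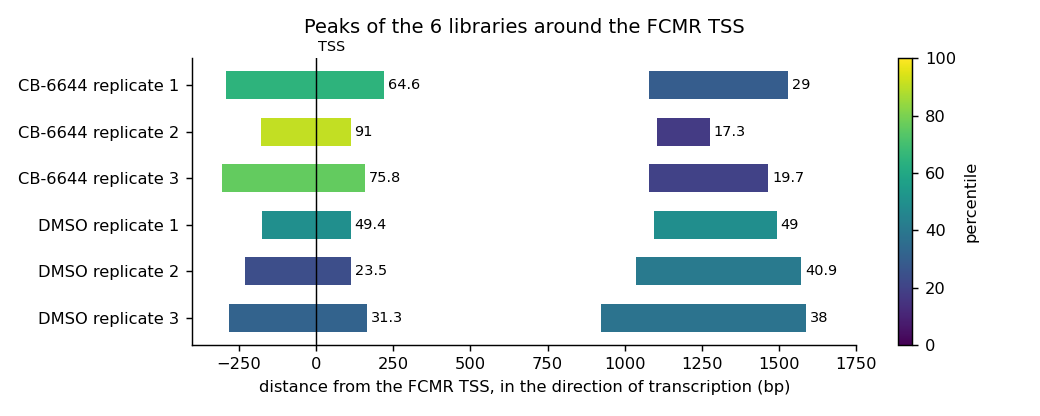
Peaks of the 6 libraries (bars, 1 row per library) by distance in bp from the FCMR start site in the direction of transcription, coloured and labelled by percentile. The TSS peak is at 64.6 to 91.0 in CB-6644 and 23.5 to 49.4 in DMSO, and the intronic peak at 17.3 to 29 and 38 to 49.0.

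Members were set against open regions around them and across the genome. Of the 31450 shared regions away from promoters, 853 were higher (2.71%) and 3431 lower (10.9%) by the same margin, larger shares than at promoters in both directions. The median difference was −3.12 points at these distal regions and 1.02 at shared promoters, of which 59.1% had a positive difference. Around promoters higher in CB-6644, the distal regions mostly did not share the direction. Of the 29, 26 had a shared distal region within 50 kb, and the median difference of these regions was taken for each promoter. This median was negative for 20 of the 26 (76.9%), with a middle value of −7.08 points over the promoters. For promoters lower, 145 had such a region, and the median was negative for 88 of them (60.7%), with a middle value of −2.75. Around all shared promoters with such a region it was negative for 63.8%, with a middle value of −2.21. Percentiles are relative within a library, so a shift of promoters as a class against distal regions moves with the make-up of the lists, and the 2 cannot be told apart.

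Within members the replicates were about equally tight in both groups. The median SD of 3 libraries was 4.46 points in CB-6644 and 4.70 in DMSO for promoters higher, and 5.53 and 4.07 for those lower. The median ratio of mean fold enrichment, CB-6644 over DMSO, was 1.40 for promoters higher, and DMSO over CB-6644 it was 1.43 for those lower. The fold itself, without ranking, was apart in the same direction at 21 of the 29 and 188 of the 200. The percentiles that chose the members are ranks of this same fold, so these counts are a description and no separate support. Without any margin, the groups did not overlap at 236 promoters higher (2.22% of shared promoters) and 644 lower (6.05%).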

How the data were processed

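According to the study's methods and the submitters' processing notes, the authors mapped the reads of each library on hg38 (Bowtie2 2.4.2) and ran a peak caller on it (MACS3 3.0). The settings are not given in the sources used here. The deposited fold enrichment is a ratio, of pile-up at a peak to its local background, with no scaling between libraries, so it was ranked within each list. The deposited −log10 p and −log10 q values are those of the authors' peak caller. The lists hold no read counts, so no test of differential accessibility was made. Pile-up was recovered from fold and −log10 p under a Poisson model, and at least 99.8955% of the values of each list came out whole within 0.02 reads.

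TSSs were the 5′ ends of 20033 protein-coding genes (GENCODE release 44), 1 per gene. Regions counted as promoters within 1000 bp. Members had groups apart by 5 points or more. Named were the 12 members of each direction with the widest gaps, the 3 nearest the limit on either side and up to 4 members of each gene list, others being marked as named after their values were seen, and some items are not reported here. Sequences, base composition and 21 motifs came from hg38 (Python 3.11.15, pysam 0.24.0, pandas 2.3.3). The rule was run on simulated promoters with equal noise in all libraries, ranked among themselves. That setting does not hold the differences in depth and fragment length between these libraries, so it does not bear on them. Members and lists were chosen with earlier results of these data known. Another 20 settings were tried, and 1 more, percentiles among shared promoters alone, was added after seeing the data.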

Additional observations from a re-analysis of the deposited data

How the results depend on the processing

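The count of shared promoters higher in CB-6644, 29, depended on the reference set of the ranks, and on the margin, the start sites and the libraries used. It was 274 with percentiles among regions called in all 6 libraries, 167 among shared promoters (chosen after seeing the data), 373 with equal numbers of top peaks, 206 within 10 bins of GC content, 56 with all protein-coding transcript starts, 87 and 12 with margins of 2 and 10 points, and 491 with the 4 long-fragment libraries. The count lower, 200, was 425 by −log10 p, 405 by pile-up, 125 among regions called in all 6, 84 with equal numbers of top peaks, 305 with transcript starts, 394 and 69 with margins of 2 and 10 and 895 with the long-fragment libraries. A smaller margin or fewer libraries loosens the rule, and more start sites add regions, so larger counts there follow at least in part from the rule. With the long-fragment libraries all 29 and all 200 members still passed. The cause of the other differences was not tested. With ranks among regions called in all 6 and with equal numbers of top peaks, promoters higher outnumbered those lower, as they did without DMSO replicate 1 (466 against 269). Leaving out 1 library, which also loosens the rule, gave 35 to 466 higher and 269 to 784 lower. The remaining alternatives (−log10 q of at least 5, windows around summits, a TSS within 500 or 2000 bp) stayed within 1.5 times both counts.

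Counts alone do not say which promoters. By pile-up 14 of the 29 and 123 of the 200 still passed, by −log10 p 16 and 137, and with equal numbers of top peaks 25 and 70.

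Of 1175 values of the 57 named promoters under these alternatives, 995 moved by less than the SD between replicates, 169 moved by more with their sign kept and 11 changed sign, all 11 at promoters higher in CB-6644. By −log10 p the differences were −0.68 for CHAC1, −1.30 for CFAP58, −1.74 for HARS2 and −5.12 for H2BC7. By pile-up they were −2.30 for CHAC1, −6.45 for H2AC16, −1.71 for SRGN, −3.32 for CFAP58, −0.065 for MMP26, −2.87 for HARS2 and −8.24 for H2BC7. The other 22 values were not available, as the region was then not called in all libraries. A change of TSS distance, start sites or margin and the replicate block leave the difference unaltered, and leaving out 1 library moves it little. Those settings kept all 57 values and were no check on them. By −log10 p 36 of 57 stayed, and 26 by pile-up, 25 among regions called in all 6, 19 among shared promoters and 22 within GC bins. GM2A, CRYBA2 and CD151 were not among the 57.

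Deviations from the group means of same-numbered libraries correlated at −0.58, −0.35 and 0.34, and those of differently numbered libraries at −0.53 to 0.68. The highest value was between CB-6644 replicate 2 and DMSO replicate 1, the libraries with the shortest peaks. These correlations follow differences between libraries of that kind, so they cannot decide whether same-numbered samples were paired. With the replicate block, asking each same-numbered pair to differ by 5 points, 73 promoters were higher and 373 lower, by a looser rule that contains the main one. The lists give no read totals, so depth was not matched between libraries.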

Other observations

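Promoters tied only to an alternative start site were kept apart from the above, since 1 TSS per gene was used there. Within 1000 bp of another protein-coding transcript start lay 2822 shared regions, of which 27 were higher in CB-6644 (0.957%) and 111 lower (3.93%). The shares were 0.273% and 1.88% at the shared promoters above, and 2.71% and 10.9% at shared regions away from them. The genes named here were chosen after their values were seen. MYO3B, a class III myosin (chr2:170180139-170180568), ranked at 39.2, 30.9 and 41.3 in CB-6644 replicates 1 to 3 and at 85.1, 92.1 and 92.1 in DMSO, the widest gap of this set at 43.8 points. IFITM1, an interferon-induced membrane protein that restricts virus entry (chr11:313729-314610), ranked at 35.4, 46.6 and 42.6 against 75, 71.3 and 73.0. NLRP11, a member of the NLR family of immune sensors (chr19:55818964-55819891), ranked at 28.2, 22.6 and 18 against 54.8, 55.0 and 61.7.

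Among the 27 higher, KRT15, a keratin of basal epithelium (chr17:41518116-41518380), had the widest gap and ranked at 56.9, 70.03 and 59.4 against 34.9, 31.2 and 26.1. At ERBB2, which encodes the HER2 receptor (chr17:39703568-39704033), the levels were 85.8, 78.0 and 83.4 against 54.3, 61.4 and 59.0. MRPL10, a mitochondrial ribosomal protein gene (chr17:47829947-47830257), was weak in DMSO, at 7.64, 6.99 and 7.11, and ranked at 35.5, 43.3 and 29.4 in CB-6644. The groups did not overlap at any of these regions, as the rule required.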
